A study of Mus musculus with 18 samples.

Results

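Oxidative phosphorylation is carried out in the inner mitochondrial membrane by respiratory complexes I to IV and by complex V, the ATP synthase. Complexes I to IV pass electrons from NADH and succinate to oxygen, and complexes I, III and IV pump protons. Complex V uses the proton gradient to make ATP. Most subunits of these complexes are encoded in the nucleus, and a few core subunits are encoded in mitochondrial DNA. The genes described here are the nuclear ones, taken by name from the authors' tables: every entry whose symbol starts with Nduf (complex I), Uqcr (complex III), Cox4 to Cox8 (complex IV) or Atp5 (complex V), and the complex II genes Sdha, Sdhb, Sdhc and Sdhd. The rule found 78 genes among the 10110 different genes listed in at least 1 of the 3 tables. Of these, 69 are catalogued subunits, from a catalogue of 86. Another 7 are the assembly factors Ndufaf1 to Ndufaf7, which help to build complex I and are not part of it. The remaining 2 are Atp5s and Atp5sl, which carry old ATP synthase names and are not catalogued subunits.

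The RNA came from 2 immortalized mouse embryonic fibroblast lines. The S51A line (labelled eIF2aS51A) carries an eIF2α with alanine in place of serine 51, the site at which kinases of the stress response act to slow the start of translation, and the WT line is wild type. The S51A groups were untreated (0 min) or had been exposed to 500 µM hydrogen peroxide for 15 or 120 min, and the WT groups were matched to them in treatment and time. The labels give 3 samples for each of the 6 groups, whereas the series design speaks of duplicates. With 1 line per genotype, an effect of the mutation and a difference between the lines cannot be told apart.

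The values are the authors' FPKM, a read count scaled to transcript length and sequencing depth, with 1 value per line and time. Spread between samples and sequencing depth are therefore unknown, no SD can be given, and nothing in the labels says that samples came from separate cultures. The entries of each table are those that passed the authors' own test of S51A against WT at that time, with q-values of at most 0.05, so 100% of entries are called and a gene that is not listed may or may not have differed. "Higher" and "lower" below rest on that call. In bulk RNA, fewer cells expressing a gene and less RNA per cell cannot be told apart. Of 11 fibroblast markers, 10 were listed and reached 5 FPKM. The markers of other cell types that were listed were the macrophage gene Cd68, at 1.11 FPKM in S51A and 1.97 FPKM in WT at 0 min, and the muscle gene Des, at 0.688 FPKM in S51A and 0.149 FPKM in WT at 15 min.

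In untreated cells, the listed oxidative phosphorylation genes were nearly all lower in S51A. Of 57 listed members, 56 were lower in S51A, while 50.4% of all 7549 entries of that table were lower. Their median was a 1.60-fold lower level in S51A (median log2 ratio -0.68, range -1.45 to -0.27 without Cox6b2), against a median log2 ratio of -0.28 over all entries. The exception was Cox6b2, the testis form of a cytochrome c oxidase subunit, at 1.39 FPKM in S51A and listed at 0 in WT, while 49.6% of all entries were higher in S51A.

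By complex, the 26 listed complex I subunits were lower in S51A by a median log2 ratio of -0.54. The 6 of complex III had a median of -0.88, the 9 of complex V a median of -0.76, and the 8 lower ones of complex IV a median of -0.71. In complex I, Ndufab1, the acyl carrier protein, had the lowest ratio, at 6.19 FPKM in S51A and 13.3 FPKM in WT, and the membrane-arm subunit Ndufb10 was at 149 FPKM in S51A and 276 FPKM in WT. In complex V, Atp5h, a subunit of the peripheral stalk, was at 302 FPKM in S51A and 596 FPKM in WT. Both listed complex II genes were lower. Sdhb, the iron-sulfur subunit of succinate dehydrogenase, was at 106 FPKM in S51A and 180 FPKM in WT, and Sdhd, a membrane anchor, was at 112 FPKM in S51A and 184 FPKM in WT. The 4 listed complex I assembly factors had a median log2 ratio of -1.10, below that of the complex I subunits, a difference that was not tested. Ndufaf2 was at 50.6 FPKM in S51A and 135 FPKM in WT.

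A minority of members differed by 2-fold or more in untreated cells. Of 57 listed members, 9 were lower by that fold, a share near the 15% of all entries that were. Cox5a, a matrix-side subunit of cytochrome c oxidase (chromosome 9, 57521232 to 57532426 on mm10), was at 284 FPKM in S51A and 776 FPKM in WT, a 2.73-fold lower level. Atp5g1, 1 of the genes that encode the proton-carrying ring subunit c of the ATP synthase, was at 54.9 FPKM in S51A and 148 FPKM in WT, 2.69-fold lower. Uqcrc1, a core protein of complex III (chromosome 9, 108936648 to 108949641), was at 106 FPKM in S51A and 263 FPKM in WT, 2.48-fold lower. The authors' deposited table gives all 3 the lowest q-value of that time, 0.000118, which 44 of the 57 members share. At the other end, Ndufb8, an accessory subunit of complex I, was at 215 FPKM in S51A and 261 FPKM in WT, and Ndufs6, an accessory subunit that carries a zinc site, was at 93.1 FPKM in S51A and 116 FPKM in WT.

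**Figure D1:**
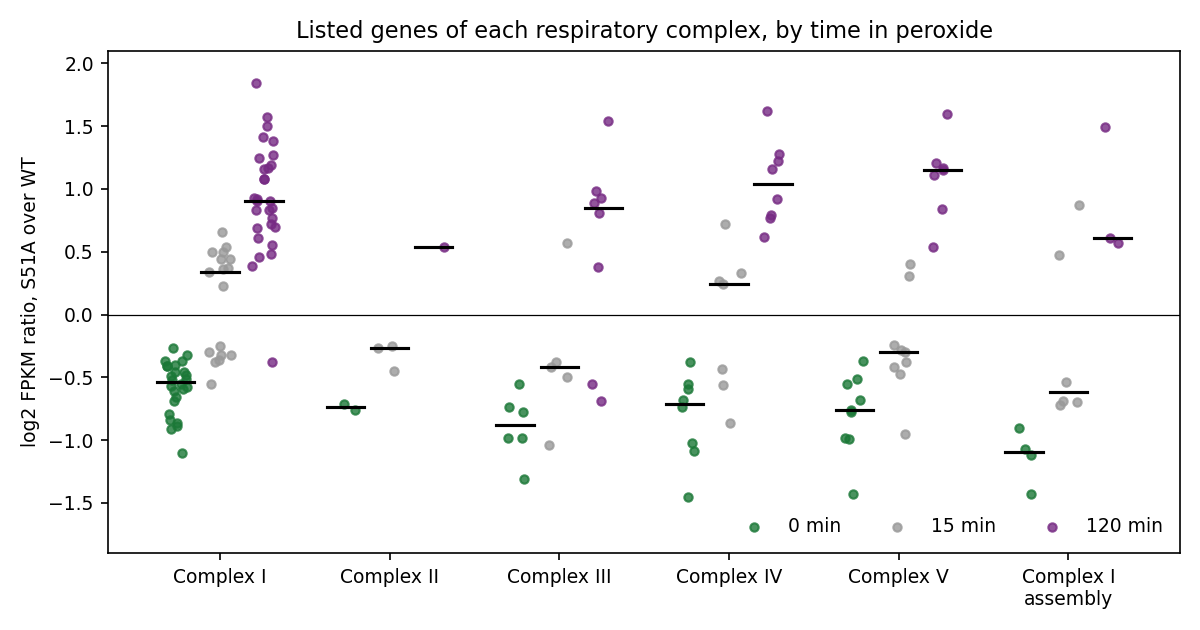
Each point is a listed gene, the vertical axis is its log2 FPKM ratio of S51A over WT, and black lines are medians for each complex and time in peroxide (0, 15 and 120 min). Cox6b2, listed at 0 in WT, and the non-subunits Atp5s and Atp5sl are not drawn; the points lie below 0 at 0 min, on both sides at 15 min, and mostly above 0 at 120 min.

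After 15 min of peroxide the listed members were on both sides. Of 49, 21 were higher in S51A, while 49.9% of all 8289 entries were higher, and 28 were lower, while 50.1% of all entries were. The median log2 ratio was -0.28, close to the -0.21 of all entries. Complex I was divided into 10 subunits higher and 7 lower in S51A, and complex IV into 5 and 3. In complex V, 2 were higher and 7 lower, in complex III 1 was higher and 4 were lower, and the 3 listed complex II genes were lower. In all, 1 member was lower by at least 2-fold, as 12.3% of all entries were, and that was Uqcrc1. Cox6b2, at 1.14 FPKM in S51A and listed at 0 in WT, again stood alone on the higher side, where 20.2% of all entries had at least a 2-fold difference.

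The highest ratios at 15 min among subunits expressed in both lines were those of Cox4i1, the main isoform of a large nuclear subunit of cytochrome c oxidase, and Ndufv3, an accessory subunit of the NADH-oxidizing arm of complex I. Cox4i1 was at 704 FPKM in S51A and 428 FPKM in WT, and Ndufv3 at 88.6 FPKM in S51A and 56.1 FPKM in WT. Neither was listed at 0 min. The membrane-arm subunit Ndufb5 was at 74.0 FPKM in S51A and 50.9 FPKM in WT. Higher in complex V were the stalk genes Atp5f1, at 171 FPKM in S51A and 130 FPKM in WT, and Atp5o, at 315 FPKM in S51A and 254 FPKM in WT. These 3 genes were not listed at 0 min either. Uqcrc1 had the lowest ratio, at 111 FPKM in S51A and 229 FPKM in WT. Atp5g1 and Cox5a were again lower in S51A, Atp5g1 at 62.2 FPKM in S51A and 120 FPKM in WT, and Cox5a at 329 FPKM in S51A and 596 FPKM in WT. In complex I, the accessory subunit Ndufa10 was at 66.7 FPKM in S51A and 86.8 FPKM in WT. Sdha, the flavoprotein subunit of complex II, appeared in this table alone, at 85.6 FPKM in S51A and 101 FPKM in WT.

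At 120 min the direction was the opposite of that in untreated cells. Of 57 listed members, 54 were higher in S51A, while 50.9% of all 6105 entries were higher, and 3 were lower, while 49.1% of all entries were. The median level was 1.87-fold higher in S51A (median log2 ratio 0.90, range -0.69 to 1.84), against a median log2 ratio of 0.40 over all entries. Of the 57, 23 were higher by at least 2-fold, while 26.5% of all entries were higher by at least 2-fold. The members listed at 0 and at 120 min are not the same 57 genes.

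Complex V had the highest median among the complexes at 120 min, 2.22-fold over its 7 listed members, all of them higher in S51A. Atp5e, the small epsilon subunit of the F1 stalk (chromosome 2, 174461075 to 174464101), was at 1031 FPKM in S51A and 340 FPKM in WT, 3.03-fold higher. Atp5j2, a membrane subunit, had the highest level of any member, at 1808 FPKM in S51A and 781 FPKM in WT. The stalk genes followed, Atp5f1 at 347 FPKM in S51A and 154 FPKM in WT, Atp5o at 657 FPKM in S51A and 296 FPKM in WT, and Atp5h, the reverse of its untreated call, at 1003 FPKM in S51A and 560 FPKM in WT. The central F1 genes Atp5a1, Atp5b and Atp5c1, lower in S51A at 0 and 15 min, were not listed at 120 min.

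All 8 listed complex IV genes were higher in S51A at 120 min, with a median of 2.06-fold. Cox4i1 (chromosome 8, 120668225 to 120674209) was at 1675 FPKM in S51A and 545 FPKM in WT, 3.07-fold higher. Cox6b1, the somatic counterpart of Cox6b2, was at 724 FPKM in S51A and 313 FPKM in WT, after 228 FPKM in S51A and 335 FPKM in WT at 0 min. The lowest ratios here were those of Cox6c, at 955 FPKM in S51A and 626 FPKM in WT, and Cox7a2l, at 128 FPKM in S51A and 75.6 FPKM in WT, followed by Cox7b, at 410 FPKM in S51A and 236 FPKM in WT. Ndufa4, first described in complex I and now assigned to complex IV, was at 1531 FPKM in S51A and 685 FPKM in WT. Cox5a, Cox5b and Cox7a2, lower in S51A at both earlier times, were not listed. Neither was the complex V gene Atp5g1.

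In complex I, 28 of 29 listed subunits were higher in S51A at 120 min. Ndufa5, an accessory subunit of the peripheral arm (chromosome 6, 24518666 to 24527687), had the highest ratio of any member, at 410 FPKM in S51A and 115 FPKM in WT, 3.58-fold higher. Ndufs6 was at 298 FPKM in S51A and 99.7 FPKM in WT, and Ndufc1, a membrane-arm subunit, at 458 FPKM in S51A and 161 FPKM in WT. The core subunits Ndufs8, at 198 FPKM in S51A and 86.8 FPKM in WT, and Ndufv1, the NADH-binding flavoprotein, at 122 FPKM in S51A and 75.1 FPKM in WT, were among the higher genes. Ndufs3, another core subunit, had 1 of the lowest ratios among those higher, at 60.1 FPKM in S51A and 43.7 FPKM in WT. Ndufb9, of the membrane arm, had the lowest, at 465 FPKM in S51A and 355 FPKM in WT. The remaining subunit, lower in S51A, was Ndufs1. Of the assembly factors, Ndufaf1, Ndufaf3 and Ndufaf7 were listed and higher in S51A, at 25.5, 6.23 and 19.4 FPKM in S51A and 17.1, 2.22 and 12.7 FPKM in WT.

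Complex II and complex III completed the list at 120 min. Sdhc, the other membrane anchor of succinate dehydrogenase, was at 147 FPKM in S51A and 102 FPKM in WT. In complex III, 6 of 8 listed genes were higher, led by Uqcr11, a small membrane subunit, at 534 FPKM in S51A and 184 FPKM in WT. Uqcr10, another small subunit, was at 644 FPKM in S51A and 367 FPKM in WT. Uqcrfs1, the Rieske iron-sulfur protein, was at 185 FPKM in S51A and 142 FPKM in WT.

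Of the 78 members, 37 were listed both at 0 and at 120 min. Among these, 34 were lower in S51A at 0 min and higher at 120 min, whereas 10.4% of the 4328 genes listed at both times had that sequence of calls. No member had the reverse sequence, which 7.74% of those genes had. Both calls of a gene share no samples, but the genes share their samples, so the count is a description of these groups. The change between times was not tested, because the tables hold no values per sample.

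The shift of the ratio was widest for Atp5e, at 211 FPKM in S51A and 357 FPKM in WT at 0 min, before the 1031 FPKM in S51A and 340 FPKM in WT at 120 min. Its log2 ratio was 2.36 higher at 120 min. Atp5k, the e subunit of the ATP synthase (chromosome 5, 108433253 to 108434378), was listed at all 3 times. It was at 498, 609 and 1734 FPKM in S51A at 0, 15 and 120 min, against 989, 739 and 803 FPKM in WT. The S51A value was the lower one at 0 and 15 min and the higher one at 120 min.

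Uqcrh, the hinge protein of complex III (chromosome 4, 116066965 to 116075070), was at 274, 324 and 820 FPKM in S51A at 0, 15 and 120 min, against 541, 425 and 431 FPKM in WT. Ndufs6 (chromosome 13, 73319876 to 73328482) was at 93.1, 113 and 298 FPKM in S51A, against 116, 89.9 and 99.7 FPKM in WT, and its S51A value was already the higher one at 15 min. Ndufa2, an accessory subunit of complex I, was at 144 FPKM in S51A and 271 FPKM in WT at 0 min, and at 568 FPKM in S51A and 252 FPKM in WT at 120 min. Cox7c, a small subunit of cytochrome c oxidase (chromosome 13, 86044798 to 86046795), was at 99.7 FPKM in S51A and 202 FPKM in WT at 0 min, and at 350 FPKM in S51A and 185 FPKM in WT at 120 min. In these 6 genes the S51A value moved further between the times than the WT value did.

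Of 14 members listed at all 3 times, 3 were lower in S51A throughout, while 46.2% of the 3826 genes listed at all 3 times were. These 3 were Uqcrc1, Uqcrc2 and Ndufs1. Uqcrc2, the other core protein of complex III (chromosome 7, 120635189 to 120670343), was at 61.8, 64.0 and 62.2 FPKM in S51A at 0, 15 and 120 min, against 90.5, 89.9 and 91.1 FPKM in WT. Ndufs1, the largest core subunit of the peripheral arm of complex I (chromosome 1, 63114471 to 63176822), was at 49.2 FPKM in S51A at each time, against 63.6, 63.1 and 64.4 FPKM in WT. Uqcrc1 was at 106, 111 and 149 FPKM in S51A, against 263, 229 and 239 FPKM in WT. The authors' deposited table gives Ndufs1 a q-value of 0.0493 at 120 min, near the limit, against 0.000198 for Uqcrc1 and 0.00287 for Uqcrc2.

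**Figure D2:**
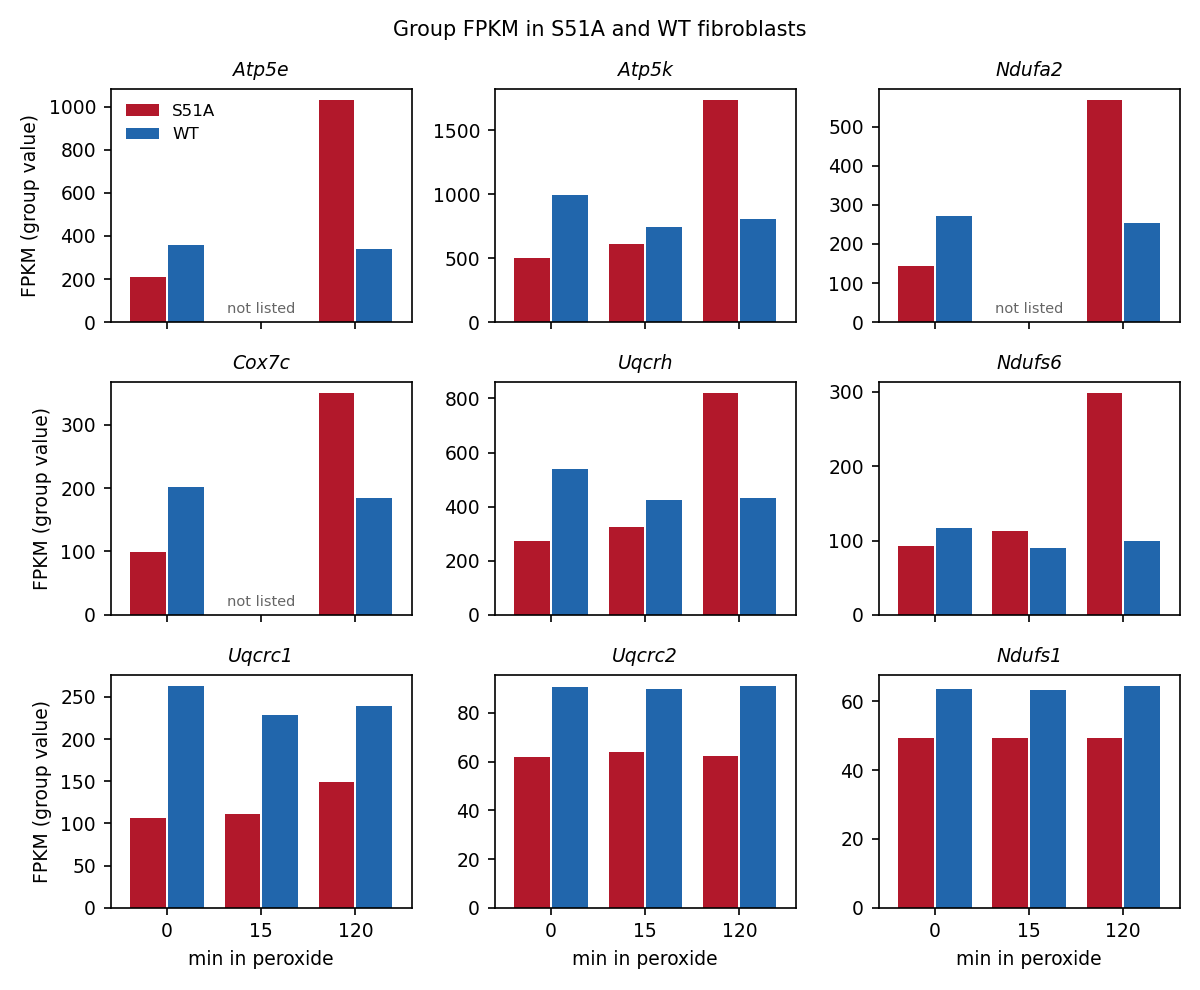
Bars are the authors' group FPKM in S51A (red) and WT (blue) cells at 0, 15 and 120 min in peroxide, with no error bars because the tables give 1 value per group. In Atp5e, Atp5k, Ndufa2, Cox7c, Uqcrh and Ndufs6 the S51A bar is the lower one at 0 min and the higher one at 120 min, and in Uqcrc1, Uqcrc2 and Ndufs1 it is the lower one at each time.

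Within each line, the members' levels were set against those at 0 min as log2 of FPKM + 1, centred on the median of all genes that appear at both times. Whether the authors scaled the 3 tables together is not known, and such folds understate changes of low genes, so these values are descriptive. In S51A, 37 members were at a median of 2.92-fold their 0 min level at 120 min (centred log2 change 1.55, range 0.18 to 2.46). In WT the same 37 members were at a median of 0.986-fold (centred log2 change -0.02, range -0.23 to 0.18). The centring added 0.18 in S51A and 0.10 in WT, and without it the medians were 1.37 in S51A and -0.12 in WT. In S51A, 35 of the 37 had a centred log2 change over 0.5, which 23.2% of the 4328 genes had. The other two were Ndufs1 and Uqcrc2.

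By complex, the median centred log2 change at 120 min in S51A was 1.90 for 5 complex V genes, 1.73 for 5 of complex IV, 1.51 for 21 of complex I and 1.40 for 6 of complex III. In WT all 4 medians lay close to 0, and the complex V median of -0.03 was the farthest from it. At 15 min, 32 members had medians of 0.10 in S51A and -0.30 in WT, with 28 of 32 above 0 in S51A. In WT the 31 members with a value at both times were below 0, with the same median of -0.30. The remaining one, Cox6b2, was listed at 0 in WT at both times, so its WT value is the centring alone. Among the members listed at 0 and 15 min, the larger changes were thus on the WT side. Among those listed at 0 and 120 min, they were on the S51A side. These sets hold different members, and genes first listed at 15 min, such as Cox4i1 and Ndufv3, are in neither.

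**Figure D3:**
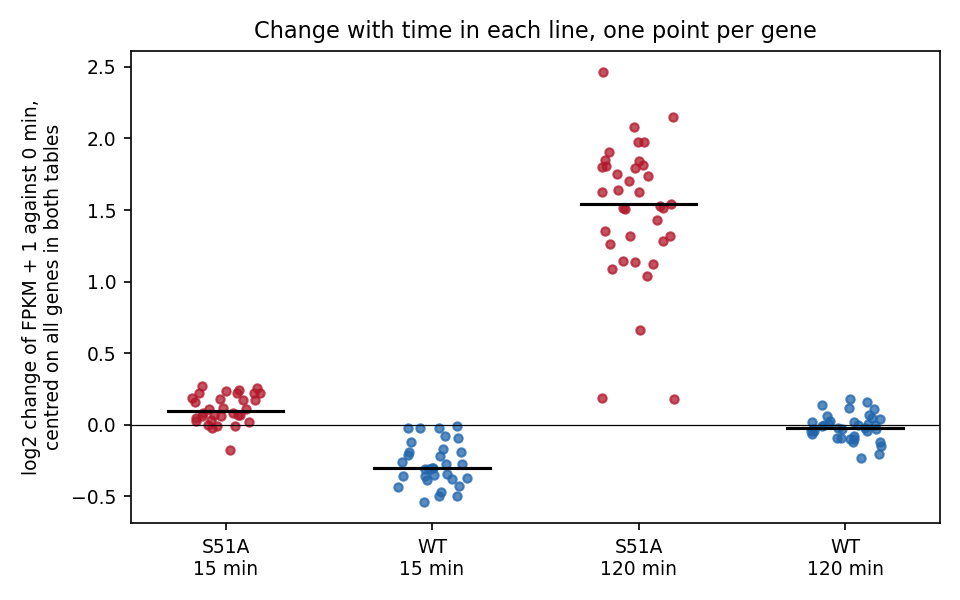
Each point is a member listed in both tables of a pair of times, the vertical axis is its centred log2 change of FPKM + 1 against 0 min, and black lines are medians. Cox6b2, listed at 0 in WT, is drawn in the WT group at 15 min at the centring value of -0.01. At 120 min the S51A points reach 2.46 and the WT points stay between -0.23 and 0.18.

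The members' transcripts were short, and the ratio between the lines moved with transcript length over all genes. Lengths are medians over the protein-coding transcripts of the GENCODE M21 basic set, and 77 of the 78 members had one. The median was 782 nt for members and 2764 nt for the other listed genes. Across the 37 members listed at 0 and 120 min, the change in log2 ratio from 0 to 120 min had a Pearson correlation of -0.65 with log2 length. Across 4065 other genes it was -0.62. Both sets come from the same 4 group values, and genes are not independent.

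Genes of like length that are not members also had that sequence of calls, in larger shares the shorter they were. Up to 600 nt, 15 of 15 members and 41 of 55 other genes (74.5%) were lower in S51A at 0 min and higher at 120 min, with median shifts of the log2 ratio of 1.78 for members and 1.51 for others. Between 600 and 1000 nt these were 11 of 11 members and 121 of 233 other genes (51.9%), with median shifts of 1.34 and 1.14. Between 1000 and 1500 nt they were 6 of 6 members and 99 of 397 other genes (24.9%), with median shifts of 1.38 and 0.62. Above 3000 nt, where no member had both calls, 1.34% of other genes had that sequence. The difference between members and other genes of like length was not tested, nor was the part of length in the shift.

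The 3 genes lower in S51A throughout had transcripts of 1653 nt (Uqcrc1), 1896 nt (Uqcrc2) and 2626 nt (Ndufs1), longer than those of most members. Ndufs4 and Ndufb2, also longer by this measure, had the lower-then-higher calls. The measure is a median over annotated transcripts, and the transcript expressed here may differ in length. Ndufs4, an accessory subunit of complex I at 1698 nt, was at 39.9 FPKM in S51A and 59.7 FPKM in WT at 0 min, and at 102 FPKM in S51A and 54.9 FPKM in WT at 120 min. Ndufb2, a membrane-arm subunit at 2413 nt by this measure, was at 80.4 FPKM in S51A and 120 FPKM in WT at 0 min, and at 206 FPKM in S51A and 109 FPKM in WT at 120 min. Up to 600 nt, 16 of 17 members and 83.1% of 77 other genes were lower in S51A at 0 min. Between 600 and 1000 nt, these were 15 of 15 members and 74.9% of 415 other genes. Over 1000 nt, 24 members were lower and 0 higher in S51A at 0 min, while 47.8% of 6684 other genes over 1000 nt were lower. Between 1000 and 1500 nt, 12 of 12 members and 67.6% of 748 other genes were lower at 0 min. Between 1500 and 3000 nt, these were 11 of 11 members and 53.8% of 2744 other genes. At 120 min, 20 of 20 members and 88.4% of 86 other genes up to 600 nt were higher in S51A. Between 600 and 1000 nt, these were 18 of 18 members and 90.9% of 405 other genes. Over 1000 nt, 16 members were higher and 3 lower at 120 min, while 46.0% of 5232 other genes over 1000 nt were higher. Between 1000 and 1500 nt, 9 of 9 members and 80.4% of 598 other genes were higher at 120 min. Between 1500 and 3000 nt, these were 7 of 10 members and 56.9% of 1987 other genes. Over 3000 nt no member was listed at 120 min, and 30.0% of 2647 other genes were higher. Members were not matched to other genes on length within these ranges, and the difference was not tested.

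**Figure D4:**
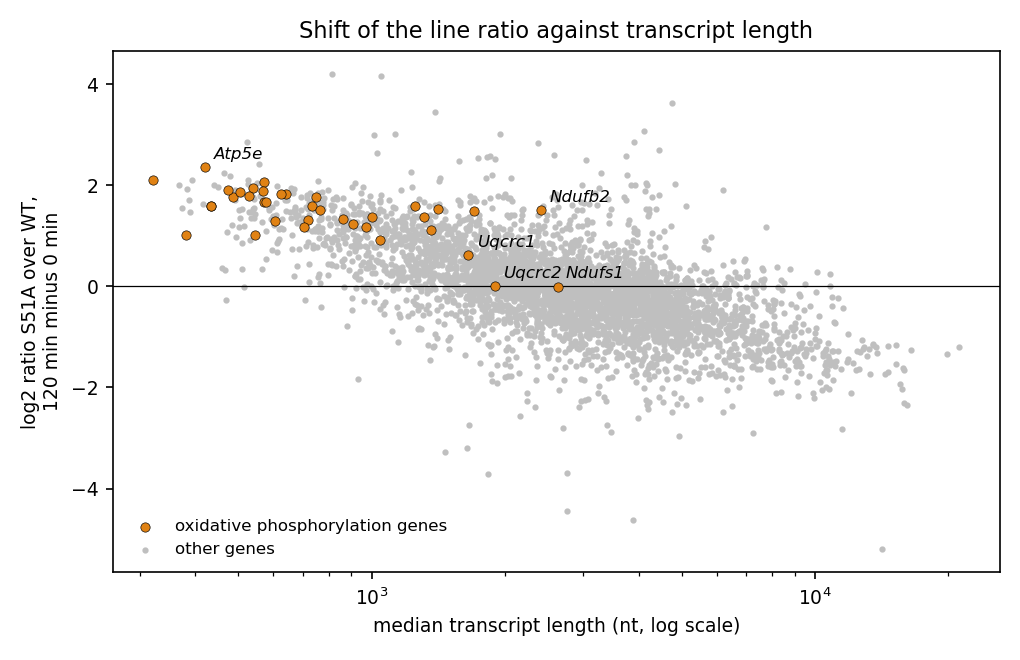
Each point is a gene listed at 0 and 120 min, with median transcript length (nt, log scale) on the horizontal axis and the log2 ratio of S51A over WT at 120 min minus that at 0 min on the vertical axis; oxidative phosphorylation genes are orange and other genes grey. Both sets slope downwards, with Pearson correlations of -0.65 over 37 members and -0.62 over 4065 other genes.

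Isoforms of one subunit can be set side by side where both were listed. Subunit c of the ATP synthase is encoded by several genes whose mature proteins are the same, and of these Atp5g1 and Atp5g3 were listed. Atp5g3 was at 413, 443 and 891 FPKM in S51A at 0, 15 and 120 min, against 704, 576 and 613 FPKM in WT, and was thus lower, lower and higher. Atp5g1 was lower at 0 and 15 min and not listed at 120 min. Among complex IV genes, Cox7a2 was at 185 FPKM in S51A and 393 FPKM in WT at 0 min, and at 218 FPKM in S51A and 322 FPKM in WT at 15 min. Its relative Cox7a2l, which encodes a factor of respiratory supercomplexes, was higher in S51A, at 70.0 FPKM in S51A and 59.3 FPKM in WT at 15 min and at 128 FPKM in S51A and 75.6 FPKM in WT at 120 min. Cox6a1 was at 324, 383 and 955 FPKM in S51A, against 419, 304 and 396 FPKM in WT. The muscle forms Cox6a2, Cox7a1 and Cox8b, and the hypoxia-linked Cox4i2 and Ndufa4l2, were not listed at any time. Several of these small genes have near-identical copies or pseudogenes elsewhere in the genome, so their separate levels are uncertain.

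The members' promoters were searched for motifs tied to respiratory genes. RefSeq start sites on GRCm38.p6 gave the 250 bases before the start for 66 of the 78 members, matched by symbol, and genes described here for which no window was used include Atp5a1, Cox4i1, Cox6c, Ndufa2, Ndufb9, Ndufs1, Sdhc and Uqcrc2. The 10-letter palindrome at the core of the site of nuclear respiratory factor NRF1, spelled by the capitals of the Atp5k and Ndufa11 windows below, occurred in 4 of 66 members (6.06%) and in 0.877% of all 27025 genes with a window. The letters CCGGAAG, read by ETS factors such as GABP, occurred in 16.7% of members and 7.83% of all genes. The letters AAGATGGC of YY1 occurred in 1.52% of members and 1.83% of all genes, and GGGCGG, read by SP1, in 42.4% of members and 35.4% of all genes. Both strands were searched, windows were not matched on base composition, and a match is a description of letters, not of binding.

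Windows are given for 3 subunit genes that hold the NRF1 letters and had the lower-then-higher calls (Atp5k, Cox6a1 and Ndufa11, an accessory subunit of complex I), for Atp5e with the widest shift, and for Uqcrc1, which was lower throughout. Each reads 5′ to 3′ on the gene's strand and ends at the base before the RefSeq start. Capitals mark the NRF1 letters and the ETS letters on either strand. They lie at chr5:108434400-108434649 (minus strand), chr5:115348959-115349208 (minus), chr17:56717512-56717761 (plus), chr2:174464102-174464351 (minus) and chr9:108936398-108936647 (plus).
Atp5k: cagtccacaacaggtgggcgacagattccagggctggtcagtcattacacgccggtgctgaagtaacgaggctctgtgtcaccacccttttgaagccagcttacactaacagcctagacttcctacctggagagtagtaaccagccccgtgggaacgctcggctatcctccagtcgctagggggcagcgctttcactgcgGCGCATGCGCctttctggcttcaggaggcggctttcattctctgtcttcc
Cox6a1: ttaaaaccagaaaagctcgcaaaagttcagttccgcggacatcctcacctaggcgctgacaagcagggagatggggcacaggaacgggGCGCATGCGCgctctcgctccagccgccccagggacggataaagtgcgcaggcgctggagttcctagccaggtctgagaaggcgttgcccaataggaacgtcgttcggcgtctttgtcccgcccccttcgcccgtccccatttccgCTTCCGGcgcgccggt
Ndufa11: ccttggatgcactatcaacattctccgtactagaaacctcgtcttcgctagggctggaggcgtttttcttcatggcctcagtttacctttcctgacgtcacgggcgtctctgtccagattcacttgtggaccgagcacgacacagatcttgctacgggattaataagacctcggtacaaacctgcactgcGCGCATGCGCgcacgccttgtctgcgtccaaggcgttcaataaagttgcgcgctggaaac
Atp5e: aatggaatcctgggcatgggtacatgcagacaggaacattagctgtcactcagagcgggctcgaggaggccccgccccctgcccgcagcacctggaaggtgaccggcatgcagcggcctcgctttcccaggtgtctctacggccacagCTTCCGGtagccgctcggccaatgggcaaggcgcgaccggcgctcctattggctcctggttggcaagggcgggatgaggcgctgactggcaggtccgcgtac
Uqcrc1: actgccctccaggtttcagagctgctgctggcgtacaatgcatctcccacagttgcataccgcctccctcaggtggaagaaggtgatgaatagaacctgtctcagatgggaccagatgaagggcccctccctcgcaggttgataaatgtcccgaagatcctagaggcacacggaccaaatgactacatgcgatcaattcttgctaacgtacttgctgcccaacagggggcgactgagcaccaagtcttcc
The NRF1 letters begin at position -50 in Atp5k, -162 in Cox6a1 and -60 in Ndufa11, counted from the start. The ETS letters occur once in Cox6a1 and once in Atp5e, and neither they nor the NRF1 letters occur in the Uqcrc1 window. Most members with a window and the lower-then-higher calls held neither set of letters, among them Atp5j2, Cox7c, Ndufs6 and Uqcr10. No window was used for Uqcrc2 and Ndufs1, also lower throughout. The printed windows were chosen by letters and calls, and a link between letters and calls was not tested. Ndufa11 was at 12.8 FPKM in S51A and 17.0 FPKM in WT at 0 min, and at 24.1 FPKM in S51A and 15.8 FPKM in WT at 120 min. The other member with the NRF1 letters was the assembly factor gene Ndufaf4, lower in S51A at 0 and 15 min, with 9.06 FPKM in S51A and 13.2 FPKM in WT at 15 min, and not listed at 120 min.

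Genes around the respiratory chain were read from lists of related pathways. None of the 13 genes of mitochondrial DNA that encode subunits was listed, so nuclear and mitochondrial subunits could not be compared. Of 41 assembly factor genes outside the name rule, 23 were listed at 0 min, 19 lower and 4 higher in S51A, while 50.4% of all entries were lower. At 120 min 20 were listed, 8 lower and 12 higher, a share near the 50.9% of all entries that were higher. Uqcc3, an assembly factor of complex III, was higher at each time, at 16.3, 19.3 and 29.0 FPKM in S51A at 0, 15 and 120 min, against 10.4, 9.65 and 6.19 FPKM in WT. Sdhaf4, which helps to assemble complex II, was at 82.7 FPKM in S51A and 24.9 FPKM in WT at 120 min. Cox16, a cytochrome c oxidase assembly factor, was at 27.9 FPKM in S51A and 8.57 FPKM in WT at that time.

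Among 20 regulators of mitochondrial biogenesis, 10 were listed at 0 min, 9 lower and 1 higher in S51A, beside 50.4% of all entries lower. At 120 min 5 were listed, 4 lower and 1 higher, beside 49.1% of all entries lower. The 1 higher at 120 min, named here after its values were seen, was Tfam. It was at 41.4 FPKM in S51A and 27.3 FPKM in WT. Ppargc1a, the coactivator PGC-1α that drives respiratory gene expression, was at 0.406, 0.332 and 0.176 FPKM in S51A at 0, 15 and 120 min, against 2.33, 3.05 and 2.11 FPKM in WT. It was thus lower in S51A at each time, and its part in the members' levels was not tested. Its relative Ppargc1b was at 0.224 FPKM in S51A and 0.807 FPKM in WT at 0 min. Tfb2m, a mitochondrial transcription factor, was at 3.43, 3.18 and 1.97 FPKM in S51A, against 6.41, 6.54 and 5.58 FPKM in WT.

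Of 22 genes for electron carriers and coenzyme Q synthesis, 16 were listed at 0 min, 12 lower and 4 higher in S51A, beside 50.4% of all entries lower. At 120 min 9 were listed, 5 lower and 4 higher, near the 49.1% of all entries that were lower. Gpd2, the mitochondrial glycerol phosphate dehydrogenase, was at 15.7, 13.8 and 10.8 FPKM in S51A at 0, 15 and 120 min, against 30.5, 37.0 and 31.8 FPKM in WT. Pdss2, for the side chain of coenzyme Q, was at 4.06 FPKM in S51A and 10.3 FPKM in WT at 120 min. Etfdh, which feeds electrons from fatty acid oxidation into coenzyme Q, differed in the opposite direction, at 36.0 FPKM in S51A and 14.8 FPKM in WT at 120 min. Cyc1, the cytochrome c1 subunit of complex III that the name rule does not reach and that is named here after its values were seen, was lower in S51A throughout like the complex III core proteins. It was at 140, 145 and 143 FPKM in S51A, against 212, 202 and 199 FPKM in WT.

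Of 21 citrate cycle and pyruvate dehydrogenase genes, 13 were listed at 0 min, 11 lower and 2 higher in S51A, beside 50.4% of all entries lower. At 120 min 7 were listed, 3 lower and 4 higher, near the 50.9% of all entries that were higher. Idh3a, a subunit of the NAD-linked isocitrate dehydrogenase, was at 58.5, 60.1 and 73.5 FPKM in S51A at 0, 15 and 120 min, against 184, 164 and 161 FPKM in WT. The pyruvate dehydrogenase kinase genes Pdk4 and Pdk2 were higher in S51A, Pdk4 at 3.36 FPKM in S51A and 0.112 FPKM in WT, and Pdk2 at 3.03 FPKM in S51A and 0.590 FPKM in WT, at 0 min. Of 14 carrier genes, 9 were listed at 0 min, 8 lower and 1 higher, beside 50.4% of all entries lower. At 120 min 6 were listed, 2 lower and 4 higher, beside 50.9% of all entries higher. Slc25a5, an ADP/ATP carrier, was at 271, 290 and 498 FPKM in S51A, against 771, 671 and 709 FPKM in WT, and Mpc2, of the pyruvate carrier, was at 133 FPKM in S51A and 48.2 FPKM in WT at 120 min. The uncoupling protein gene Ucp2 was the exception at 0 min, at 3.94 FPKM in S51A and 2.31 FPKM in WT.

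The ribosomal protein genes can be set beside these counts, without a test of the difference. Of the genes listed at 0 and 120 min, the sequence from lower at 0 min to higher at 120 min in S51A was seen in 19 of 34 mitochondrial and 43 of 45 cytosolic ribosomal protein genes, beside 34 of 37 oxidative phosphorylation genes. At 0 min, S51A had the smaller value for 59 of 59 listed mitochondrial ribosomal genes and for 70 of 71 listed cytosolic ones. Each of these sets had a median log2 ratio of -0.88, while the oxidative phosphorylation genes, with 56 of 57 lower, had -0.68. Of all entries at 0 min, 50.4% were lower. A lower level in untreated S51A cells was thus not particular to the oxidative phosphorylation genes. At 120 min, 33 of 48 listed mitochondrial and 47 of 48 listed cytosolic ribosomal protein genes were higher in S51A. So were 54 of 57 oxidative phosphorylation genes and 50.9% of all entries.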

How the data were processed

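RNA was read on an Illumina NextSeq 500, single-end, 75 nt, from strand-specific poly(A) libraries, per the labels' protocols. STAR, Cufflinks, Cuffdiff and mm10 are named in the submitters' processing notes, with no version or role, and no annotation is named. Per the file headers, the authors deposited log2 FPKM per line, their log2 difference and its q-value (a p-value adjusted for many tests), with samples combined before deposit. The deposited ratio equals S51A minus WT within 0.01. A deposited log2 FPKM of -10 was read as 0, with no fold, and left out of medians of ratios. Entries with 2 symbols, repeated symbols or dates in place of symbols were left out, and 3 further numeric columns, 1 per table, were not used. Depth is unknown, so the precision of a value rests on the authors' q-value.

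FPKM and folds were computed from these columns in Python 3.11.15 with pandas 2.3.3, after the scripts were tested on simulated data. Starts were read with 1 base added, after which 47.7% of matched genes had the RefSeq start on the same build. No test across samples could be made. The members and lists were chosen with earlier results of these data known. Named members were, per complex and time, up to 3 at either end of the ratio with at least 5 FPKM, the 6 with the widest opposite calls, those with 1 direction in all tables, isoform families and Sdh genes. Outside the rule, up to 3 genes per list by size of ratio were named. Other members are named as examples or exceptions, and were chosen after their values were seen. Alternatives covered the minimum fold, q-value, FPKM, subunit catalogue, pseudocount and centring.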

Additional observations from a re-analysis of the deposited data

How the results depend on the processing

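No paired analysis was possible because the tables hold 1 value per group, and for the same reason no sample could be left out in turn. With a minimum fold of 1.5, members lower in S51A numbered 33 at 0 min, 6 at 15 min and 1 at 120 min, those higher at 15 min 5, and those lower then higher 15. The median log2 ratios were then -0.86, -0.70 and 0.98 at 0, 15 and 120 min. With a minimum fold of 2, the lower members numbered 9, 1 and 0 at 0, 15 and 120 min. The higher ones numbered 1 at 15 min and 23 at 120 min, and those lower then higher 0. The median log2 ratios were then -1.12, -1.04 and 1.25. Of all entries, 15%, 12.3% and 20.9% were lower by at least 2-fold at 0, 15 and 120 min. Those higher by that fold were 20.2% at 15 min and 26.5% at 120 min. Shares of all entries at a minimum fold of 1.5, and of the lower-then-higher calls at either fold, were not computed. Whether members stand out in those counts is therefore not known. Requiring 5 FPKM in the higher group left 0 members higher in S51A at 0 min. At a q-value of at most 0.01, 52 of 57, 43 of 49 and 50 of 57 members were kept, and the median log2 ratios were -0.71, -0.31 and 0.93. Catalogued subunits alone gave medians of -0.66 at 0 min and 0.92 at 120 min. Members over 1000 nt alone, an alternative chosen after seeing the data, gave 0 higher and 24 lower at 0 min, 7 higher and 17 lower at 15 min, 16 higher at 120 min and 8 lower then higher. Keeping entries with 2 or repeated symbols changed none of the counts or medians.

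The median centred log2 change in S51A at 120 min was 1.58 with a pseudocount of 0.1, 1.59 with none, 1.37 without centring, 1.44 centred on genes with at least 5 FPKM, and 1.32 over members listed in all 3 tables. In WT at 120 min it was 0 with no pseudocount, -0.12 without centring and -0.069 over members listed in all 3 tables. At 15 min in S51A it was 0.11 without centring, 0.17 over members listed in all 3 tables and 0.11 over catalogued subunits. At 15 min in WT it was -0.28 with the centring on genes with at least 5 FPKM, -0.36 over members listed in all 3 tables and -0.29 over catalogued subunits. The tables hold called genes alone, so medians of ratios leave out members near equality, and depth limits what was called in a way that is unknown here.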
